A study of Torulaspora delbrueckii with 17 samples.

Results

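The places on chromosome 8 where the origin recognition complex subunit Orc1 was found in wild-type cells of the budding yeast Torulaspora delbrueckii were followed through the mutants of the study and through the Kos3 immunoprecipitations. A site was a stretch of overlapping peaks holding a peak of each of the 2 wild-type Orc1 lists, on the last chromosome entry and with its peaks ending before position 780310, which leaves out the rDNA and what lies to its right. This gave 21 sites, of 235 such sites on all chromosomes. Across the 15 peak lists, 239 peaks of 5717 overlapped a site by at least 1 bp, 184 of them in Orc1 lists and 55 in Kos3 lists, and 1 peak overlapped 2 sites. The sites were chosen by the presence of a called peak in both wild-type Orc1 lists, so their wild-type folds are given as a description without a test, and every mutant is compared with wild type at places where wild type had to have a peak.

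In this ChIP-seq series, which sequences DNA recovered with an antibody, Orc1 was pulled down by a MYC tag in 9 libraries and Kos3 by a V5 tag in 6. The Orc1 lists comprised 2 libraries of 1 sir2 strain, 1 library of a kos3 strain, 2 libraries of 1 orc1bah strain, 2 libraries of orc1P179A from 2 strains, and 2 wild-type libraries. The first wild-type library came from a strain labelled SIR, and the second from a strain that also carries Kos3-V5. The orc1bah and orc1P179A strains carry Kos3-V5 as well, and the Kos3 lists came from them and from the second wild-type strain, with 2 libraries each. All precipitated strains thus carry a tagged Orc1, and the MYC tag sits on the mutant protein in the orc1bah and orc1P179A strains. Cells were grown in YPD and fixed with formaldehyde, and both input libraries came from a strain without these tags. The labels do not describe the alleles beyond their names. The series calls the libraries of a pair technical replicates, so a spread within a pair is largely a technical one, except where the strains differ. No library of an untagged strain precipitated with either antibody was analysed here.

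The origin recognition complex binds replication origins, where with Cdc6 and Cdt1 it loads the Mcm2-7 helicase before S phase. In Saccharomyces cerevisiae it also sits at the silencers of the silent mating-type loci and near telomeres, where Orc1 is contacted by Sir1. Its BAH domain binds nucleosomes. Sir2 is a histone deacetylase needed for silencing, and Kos3 belongs to the Sir1-related family.

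The lists held from 33 to 726 peaks. Over all chromosomes, the Orc1 lists held 651 and 671 in sir2, 530 and 669 in orc1P179A, and 259 and 272 in orc1bah. The kos3 list held 299, and those of wild type 300 and 308. Left of position 780310 on chromosome 8, the Orc1 lists held 393 and 411 peaks in sir2, 292 and 435 in orc1P179A, 18 and 20 in orc1bah, 25 in kos3, and 22 and 25 in wild type. Peaks at the 21 sites made up 5.09% and 5.11% of these in sir2 and 6.85% and 4.83% in orc1P179A, against 95.5% and 92.0% in wild type. Of the remaining bases, peaks outside the sites covered 18.7% and 18.5% in sir2 and 12.8% and 20.4% in orc1P179A. The share was at most 0.216% for the other 5 Orc1 lists. The Kos3 lists of orc1P179A held 681 of their 725 peaks and 671 of their 726 in this stretch of chromosome 8. Each statement on sir2 and orc1P179A below is therefore made on a chromosome strewn with other called peaks. The median fold of those peaks was 2.16 and 2.30 for sir2, and 2.08 and 2.12 for orc1P179A. The part of these peaks in the values at the sites was not tested.

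In wild type the sites were from 348 to 1806 bp long, with a median of 993 bp. Both wild-type summits of a site lay within 100 bp of each other at 18 of 21 sites, at a median distance of 38 bp. Sites were spaced at a median of 38.1 kb between midpoints, from 11.8 to 71.8 kb, over the 18 sites at least 20 kb from the chromosome end. The median on chromosomes 1 to 7 ran from 33.7 to 53.2 kb. Chromosome 8 held 2.69 sites per 100 kb, and the other chromosomes from 2.29 to 2.63. The median spacing on chromosome 8 thus lay within the range of the others, and its density just above their highest. The chromosome 8 stretch leaves out the right chromosome end. On chromosomes 1 to 7 the smallest spacing ran from 0.96 to 6.75 kb and the largest from 84.5 to 110 kb, a wider span than on chromosome 8.

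At 16 of 21 sites (76.2%) the midpoint of the wild-type summits lay outside annotated genes, against 20.2% of the bases of this stretch. The same was found for 157 of 208 sites (75.5%) on the other chromosomes. The remaining 5 sites lay in genes. One, at 92046 to 92978, lay in ORC4, the gene of another subunit of the same complex. It is singled out here after its position was seen. The other 4 lay in TDEL0H01960, in MEI4, a meiotic recombination gene in Saccharomyces cerevisiae, in APC11, a subunit of the anaphase-promoting complex, and in REV1, a translesion DNA polymerase.

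The strongest wild-type site lay at 299052 to 300171 between SPO22 and AIM9, where the peak of the first wild-type list had a fold of 17.4 and that of the second 15.1. The fold is the authors' value for the enrichment of a peak over its background and belongs to its own list. The site at 248058 to 249431 between RAD7, a nucleotide excision repair gene, and TDEL0H01440 had folds of 13.7 and 13.9. At the left chromosome end, at 1 to 1806 beyond TDEL0H00100, folds were 11.3 and 13.7. Between BIO2, the biotin synthase gene, and TDEL0H00870, at 144854 to 146033, they were 11.7 and 13.2. The site at 745868 to 747079 between AIM2 and TDEL0H04340 had 10.1 and 13.6. These 5 had the highest mean wild-type folds of the 21, and between the 2 lists the largest gap among them was that of the last.

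The weakest site by −log10 q lay at 5924 to 6916 between TDEL0H00120 and ARN2, a siderophore transporter gene, with a −log10 q of 8.74 and 14.2 and folds of 2.43 and 2.93. Next came 458276 to 458833 between TDEL0H02760 and AFG3, a mitochondrial protease gene, with 13.7 and 8.98 and folds of 2.89 and 2.62. The third, at 680221 to 680568, lay between RPA43 and RPA190, which encode subunits of RNA polymerase I, with 15.3 and 10.1 and folds of 3.30 and 2.79. Just outside the rule stood 3 peaks found in 1 wild-type list only. The second list had a fold of 4.58 at 1989 to 3238, in TDEL0H00110, and 1.98 at 3505 to 3892, and the first had 1.88 at 69596 to 69850 beside a tRNA gene. The next wild-type peaks to the right of the limit started at 784559 and 784576.

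The sites in their order from left to right are numbered 1 to 21 below and in the plots. Beside those already given, site 3 lay at 8078 to 8926 left of ARN2, site 5 at 126722 to 127404 between ECM27 and GPA2, and site 7 at 216596 to 217559 between an alanine tRNA gene and MEF2. Site 10 is the one in TDEL0H01960, and site 11, at 382806 to 383709, lay left of APQ12. Site 12 is the one in MEI4, and site 13, at 446054 to 447425, lay between BAR1 and RIB5. Site 15, at 483876 to 484755, lay between a tryptophan tRNA gene and TDEL0H02910. Site 16, at 507634 to 508032, lay between IRC22 and SGN1, and site 18, at 607996 to 609257, lay between TDEL0H03670 and TDEL0H03680. Sites 4, 17 and 20 are those in ORC4, APC11 and REV1.

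Nearly all sites kept an Orc1 peak in the mutants. The sir2 lists held a peak at 20 and 21 of the 21 sites, those of orc1P179A at 20 and 21, those of orc1bah at 17 and 18, and the kos3 list at 20. Sites found in every list of their group numbered 20 for sir2, 20 for orc1P179A, 17 for orc1bah and 20 for kos3. Over wild-type sites of all chromosomes, 91.9% were found in every sir2 list, 90.6% in every orc1P179A list, 87.7% in every orc1bah list and 94.9% in kos3, so the counts on chromosome 8 are near that background. All 9 Orc1 lists had a peak at 17 of the sites.

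Of the 4 sites that were missing somewhere, 3 were the weakest ones. Site 2, left of ARN2, was missing from the first sir2 list, from kos3 and from both orc1bah lists. Site 14, left of AFG3, and site 19, between RPA43 and RPA190, were missing from both orc1bah lists, and site 19 also from the first orc1P179A list. Where these 3 sites were found in sir2 or orc1P179A, their folds lay from 2.12 to 5.26, close to or above the median of the peaks outside the sites. Site 15 was the fourth, with wild-type folds of 10.3 and 10.5, and it was missing from the first orc1bah list.

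Folds of different lists are not on one scale, so the fold of a site was divided by the median fold, in the same list, of the wild-type Orc1 sites on chromosomes 1 to 7. That median was taken over 168 sites found in all 9 Orc1 lists and at least 20 kb from a chromosome end. The quotient is called the relative fold. It does not remove a level that all of chromosome 8 shares in a list, and the part of such a level was not tested. On chromosome 8, 15 sites met the same conditions, which are sites 4 to 13, 16 to 18, 20 and 21.

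Orc1 folds at the chromosome 8 sites were higher relative to the other chromosomes in sir2 and in orc1P179A than in wild type. The median of the 15 sites over that of the other chromosomes was 2.11 and 2.03 for sir2, 1.59 and 1.58 for orc1P179A, 0.936 and 0.930 for orc1bah, 1.11 for kos3, and 1.01 and 0.806 for wild type. Both sir2 lists and both orc1P179A lists lay above both wild-type lists, and both orc1bah lists lay between them. Mutant minus wild type on the log2 scale, the difference was 1.20 for sir2, 0.81 for orc1P179A, 0.05 for orc1bah and 0.30 for kos3. The log2 ratio averaged 1.05 ± 0.04 for sir2, 0.66 ± 0.01 for orc1P179A and −0.10 ± 0.01 for orc1bah, against −0.15 ± 0.23 for wild type (SD, n = 2 libraries each), and was 0.15 for the 1 kos3 library. The differences of sir2 and orc1P179A were larger than these spreads, which are technical in sir2 and orc1bah, so that no spread between sir2 strains enters. That of orc1bah was smaller than the wild-type spread, and the kos3 value lay 0.14 above the higher of the 2 wild-type values. With 2 lists against 2, the exact two-sided permutation test gave p = 0.333 for sir2 and orc1P179A, the smallest this design allows. It gave 1 for orc1bah, and 0.667 for the 1 kos3 list against 2. Against the wild-type list called with the same input library, the differences were 1.04 for sir2, 0.97 for orc1P179A, 0.21 for orc1bah and 0.14 for kos3.

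**Figure D1:**
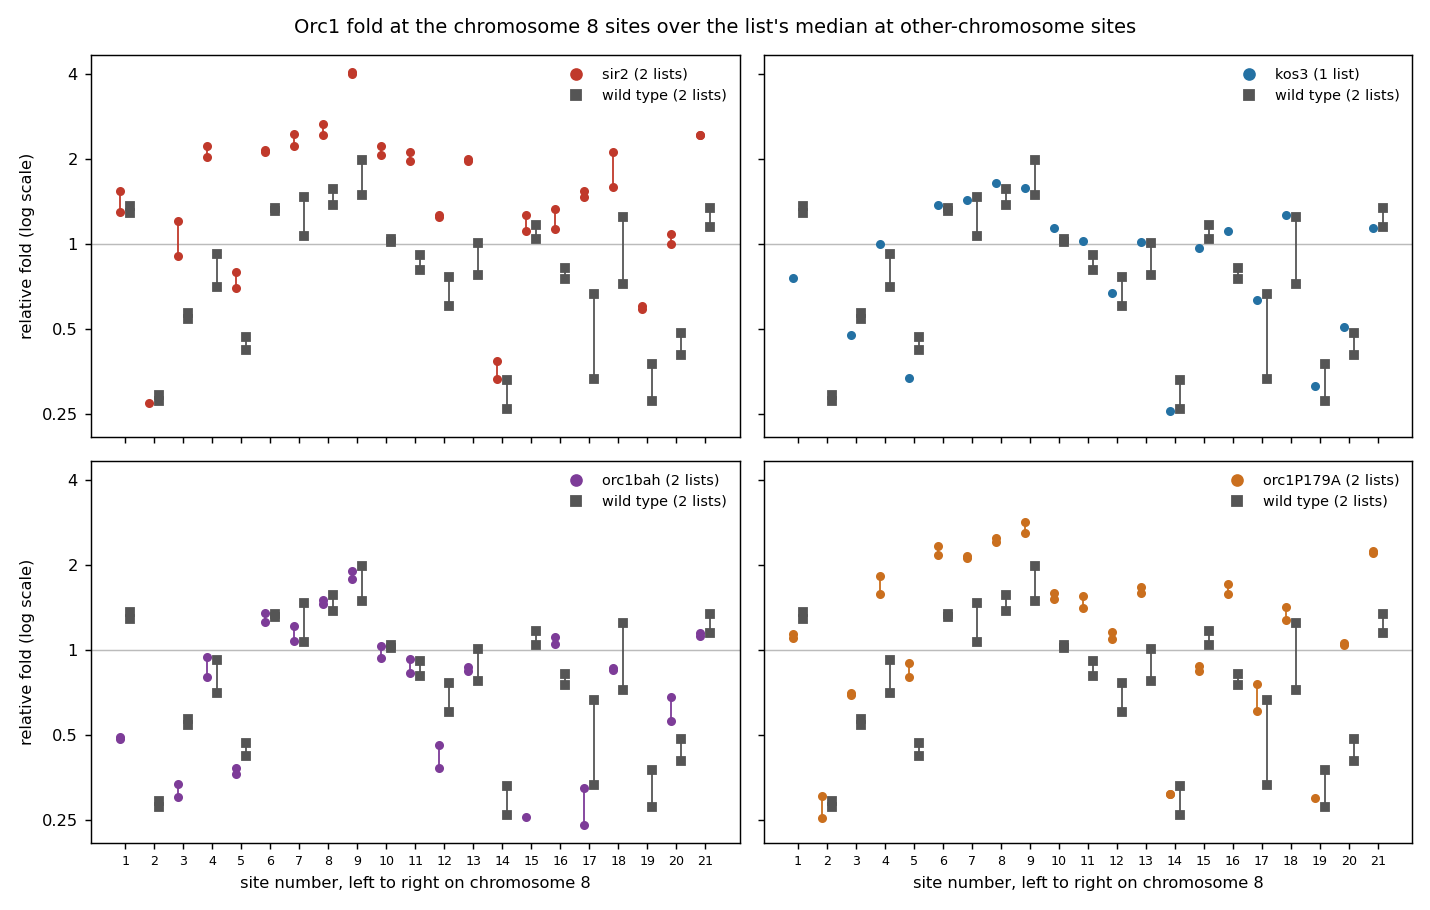
Relative fold of the Orc1 peak at each of the 21 chromosome 8 sites (site number on the x axis, log scale on the y axis), with 1 panel per mutant. Circles are the mutant lists and squares the 2 wild-type lists, joined by a line where there are 2. At sites 4 to 13, 16 to 18, 20 and 21 the sir2 circles lie above both squares, while at sites 1, 2 and 15 at least 1 circle does not.

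Single sites followed the median. In sir2, 15 of the 15 sites had a relative fold above both wild-type lists in every list, and in orc1P179A 14 of 15. Over all 183 sites of all chromosomes treated in the same way, 39.3% and 30.1% lay above both wild-type lists in sir2 and orc1P179A. In kos3 the counts were 9 of 15 above, against 36.6%, and 2 below, against 29%. With every site found in the list the kos3 count above was 6 of 18, and without the first wild-type library it was 13 of 15. In orc1bah they were 2 above, against 26.2%, and 4 below, against 33.3%. None of these 15 chromosome 8 sites lay below both wild-type lists in sir2 or orc1P179A, against 20.8% and 25.7% of all 183 sites. The median change over the 15 sites was 0.97 (log2) in sir2, with a range from 0.64 to 1.68, and 0.77 in orc1P179A, from 0.51 to 1.25. It was 0.19 in kos3 and −0.05 in orc1bah. At the 168 sites elsewhere the median change was 0.05 in sir2, −0.02 in orc1P179A, −0.03 in orc1bah and 0.02 in kos3. The wild-type lists themselves differed at single chromosome 8 sites by −0.23 to 1.01, first minus second list, so that the change at a single site is known less well than the median.

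Each other chromosome was set against the remaining ones in the same way. The change of its within-list ratio from wild type ran from −0.29 to 0.14 over chromosomes 1 to 7 in sir2 and from −0.22 to 0.04 in orc1P179A. The values of chromosome 8, 1.20 and 0.81, lay outside both ranges. In kos3 the other chromosomes ran from −0.23 to 0.09, below the 0.30 of chromosome 8. In orc1bah they ran from −0.34 to 0.24, and the 0.05 of chromosome 8 lay inside.

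**Figure D2:**
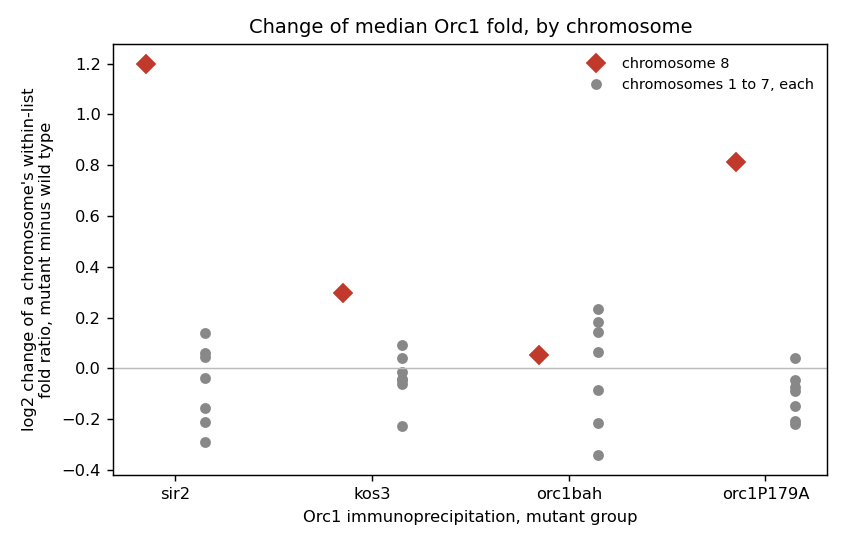
Change of the within-list ratio of median Orc1 fold for each chromosome, mutant minus wild type on the log2 scale, with the 4 mutants on the x axis. The diamond is chromosome 8 and each circle 1 of chromosomes 1 to 7. Chromosome 8 stands at 1.20 in sir2 and 0.81 in orc1P179A, and within the other chromosomes in orc1bah.

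Peaks at the sites were also longer in sir2 and orc1P179A. The median length of the peak at the 15 sites was 2284 and 2048 bp for sir2, 1692 and 1753 bp for orc1P179A, 876 and 955 bp for orc1bah, 976 bp for kos3, and 910 and 937 bp for wild type. Both lists of sir2 and of orc1P179A lay above both wild-type lists. At sites of the other chromosomes the median was 1074 and 1067.5 bp in sir2 and 911 and 964.5 bp in orc1P179A, against 1029.5 and 991.5 bp in wild type. The length on chromosome 8 over that on the other chromosomes was 2.13 and 1.92 for sir2, 1.86 and 1.82 for orc1P179A, 0.979 and 0.989 for orc1bah, 0.966 for kos3, and 0.884 and 0.945 for wild type.

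**Figure D3:**
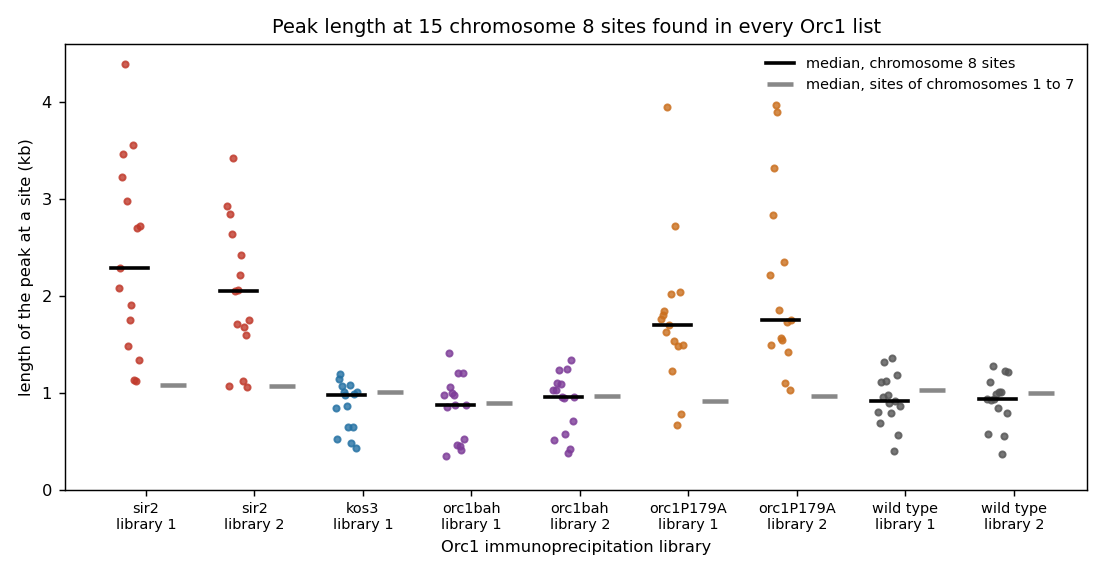
Length in kb of the peak at each of the 15 chromosome 8 sites found in every Orc1 list (points), by library, with their median as a black bar and the median at sites of chromosomes 1 to 7 as a grey bar. The black bars of sir2, at 2284 and 2048 bp, and of orc1P179A, at 1692 and 1753 bp, stand clear of the grey ones, and those of the other 5 libraries lie beside them.

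The length covered inside the site boundaries changed less, since these boundaries come from the wild-type peaks and set a ceiling of 20.7 kb. It came to 19404 and 19874 bp for sir2, 19564 and 19525 bp for orc1P179A, 12967 and 14835 bp for orc1bah, 15957 bp for kos3, and 18697 and 18860 bp for wild type. Relative to the wild-type mean this was 1.05 for sir2, 1.04 for orc1P179A, 0.740 for orc1bah and 0.850 for kos3. At the sites of the other chromosomes the same ratio was 0.677 for sir2, 0.651 for orc1P179A, 0.641 for orc1bah and 0.699 for kos3. These include sites at chromosome ends. With sites at least 20 kb from an end only, it was 0.823 for sir2, 0.766 for orc1P179A, 0.770 for orc1bah and 0.826 for kos3. On chromosome 8 it was then 1.09, 1.05, 0.794 and 0.910 in the same order, so that orc1bah differed little between chromosome 8 and the others. For the chromosome 8 ratio over all sites, the exact two-sided permutation test gave p = 0.333 in each mutant, the smallest possible. When a single wild-type list set the sites, it was also the reference and covered all of its own sites. The ratio could then not exceed 1, so this setting does not test its direction. The values were 0.972 and 0.912 for sir2 and 0.951 and 0.930 for orc1P179A.

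Changes differed in size from site to site, and whether sites differ was not tested. Site 9, between SPO22 and AIM9, had relative folds of 4.01 and 4.07 for sir2, 2.83 and 2.59 for orc1P179A, 1.78 and 1.90 for orc1bah, 1.58 for kos3, and 1.98 and 1.49 for wild type. Its folds of 32.6 and 36.5 were the highest of any peak in the sir2 lists. Site 17, in APC11, had the largest change in sir2, with relative folds of 1.54 and 1.46, against 0.665 and 0.331 in wild type, a log2 difference of 1.68. The same site had the smallest value in orc1bah, at 0.324 and 0.238, a log2 difference of −0.76. Its 2 wild-type lists differed more than those of any other of the 15 sites, by 1.01. In orc1P179A it had 0.607 and 0.757, the only one of the 15 sites there to overlap wild type.

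Values of 3 other strong sites follow. Site 8, between RAD7 and TDEL0H01440, had relative folds of 2.65 and 2.44 for sir2, 2.42 and 2.49 for orc1P179A, 1.51 and 1.45 for orc1bah, 1.64 for kos3, and 1.56 and 1.37 for wild type. Site 6, beside BIO2, had 2.11 and 2.15 for sir2, 2.17 and 2.34 for orc1P179A, 1.35 and 1.25 for orc1bah, 1.37 for kos3, and 1.33 and 1.31 for wild type. Site 21, beside AIM2, had 2.43 and 2.43 for sir2, 2.20 and 2.24 for orc1P179A, 1.15 and 1.12 for orc1bah, 1.14 for kos3, and 1.15 and 1.34 for wild type. At these 3 sites the sir2 and orc1P179A values lay close together, above both wild-type values, whereas at site 9 both sir2 values exceeded both orc1P179A values. The peak at site 8 was 4392 and 3421 bp long for sir2 and 3941 and 3962 bp for orc1P179A, against 1312 and 1276 bp for wild type.

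Sites of middling strength were higher in sir2 and orc1P179A as well. Site 11, left of APQ12, had relative folds of 1.97 and 2.11 for sir2, 1.55 and 1.40 for orc1P179A, 0.828 and 0.930 for orc1bah, 1.02 for kos3, and 0.913 and 0.806 for wild type. Site 12, in MEI4, had 1.24 and 1.26 for sir2, 1.09 and 1.16 for orc1P179A, 0.460 and 0.381 for orc1bah, 0.667 for kos3, and 0.765 and 0.599 for wild type, so that orc1bah lay below both wild-type values there and sir2 and orc1P179A above. Site 5, between ECM27 and GPA2, had the lowest change in kos3, −0.41 (log2). Its relative fold was 0.695 and 0.796 for sir2, 0.895 and 0.804 for orc1P179A, 0.363 and 0.382 for orc1bah, 0.333 for kos3, and 0.467 and 0.420 for wild type. The largest change in kos3 was 0.50 at site 16, with a relative fold of 1.11, which rests on 1 library.

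Site 20, in REV1, had the highest change in orc1P179A and the highest positive one in orc1bah. Its relative folds were 0.679 and 0.560 in orc1bah and 1.04 and 1.06 in orc1P179A, against 0.483 and 0.402 in wild type, log2 differences of 0.49 and 1.25. All 4 mutant values lay above both wild-type ones. In sir2 the smallest change, 0.64, was at site 16 between IRC22 and SGN1, with 1.12 and 1.33 in sir2 and 0.750 and 0.819 in wild type. In orc1P179A it was 0.51, at site 18 between TDEL0H03670 and TDEL0H03680, with 1.42 and 1.27, against 1.24 and 0.718 in wild type. At site 4, in ORC4, relative folds were 2.23 and 2.03 for sir2, 1.58 and 1.83 for orc1P179A, 0.945 and 0.802 for orc1bah, 1.00 for kos3, and 0.920 and 0.702 for wild type, with no overlap between sir2 or orc1P179A and wild type.

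Site 15, beside the tryptophan tRNA gene, did not share the higher values. Its relative fold was 1.11 and 1.27 for sir2, 0.877 and 0.844 for orc1P179A, 0.254 for the second orc1bah list, 0.968 for kos3, and 1.17 and 1.04 for wild type. Relative to the other chromosomes, orc1bah, orc1P179A and kos3 lay below wild type and sir2 overlapped it. Set against the median of the 15 chromosome 8 sites of the same list, the site stood at 0.527 and 0.625 for sir2, 0.552 and 0.535 for orc1P179A, 0.273 for the second orc1bah list and 0.875 for kos3, against 1.16 and 1.29 for wild type. On that scale each mutant list that had a peak there lay below both wild-type lists, as it did at 5 other sites. Its summit stayed in place, from 0 to 10 bp from the nearer wild-type summit in every mutant list with a peak.

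At the left chromosome end the Orc1 summit stood at another position in every mutant list. Site 1 runs from the first base of the chromosome entry to position 1806, beyond the outermost annotated gene. The summit of its strongest Orc1 peak lay at 822 and 802 for sir2, at 806 and 819 for orc1P179A, at 852 for both orc1bah lists and at 806 for kos3, against 83 and 163 for wild type. The 7 mutant summits thus lay from 639 to 689 bp farther inward than the nearer wild-type summit. In both orc1bah lists a second, lower peak remained near the end, with summits at 86 and 163 and folds of 2.49 and 3.20, beside 4.01 and 5.09 at the inner summit. The other mutant lists had 1 peak that spanned both places. Over the 200 wild-type sites of all chromosomes found in all 9 Orc1 lists, this was the only one whose summit lay over 300 bp from both wild-type summits in all 7 mutant lists, or 0.5%. That distance was chosen after the summits were seen. Shifts in part of the mutant lists were found at other chromosome ends. Of the 17 of these 200 sites within 20 kb of an end, 4 had a median shift over the mutant lists above 300 bp, against 1 of the 183 farther in. Beside site 1, at 656 bp, these were a site at the right end of chromosome 3 (5793 bp), one at the right end of chromosome 4 (1661 bp) and one at the left end of chromosome 7 (550 bp), and each of the 3 had at least 1 mutant summit within 94 bp. The median over all 17 was 50 bp.

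The fold at site 1 relative to the other chromosomes was 1.55 and 1.30 for sir2, 1.10 and 1.13 for orc1P179A, 0.484 and 0.492 for orc1bah, 0.754 for kos3, and 1.29 and 1.36 for wild type. It overlapped wild type in sir2 and lay below both wild-type lists in the other mutants. Against the median of the 15 interior sites of the same list it was 0.733 and 0.639 for sir2, 0.693 and 0.720 for orc1P179A, 0.517 and 0.529 for orc1bah and 0.681 for kos3, against 1.28 and 1.68 for wild type. All 7 mutant lists lay below both wild-type lists on that scale, by a log2 difference of −1.10 for sir2, −1.06 for orc1P179A, −1.49 for orc1bah and −1.11 for kos3. That scale divides by a median which was itself higher in sir2 and orc1P179A, and many sites lie low on it. Of the sites found, 11 of 21 lay below both wild-type lists in sir2, 9 of 21 in orc1P179A, 8 of 18 in orc1bah and 15 of 20 in kos3. In every mutant with a peak there, 6 of the 21 sites did so, which were sites 1, 2, 12, 14, 15 and 19. Of these, sites 2, 14 and 19 had no peak in orc1bah, and site 2 none in kos3. No share over all chromosomes was computed on this scale. Relative to the other chromosomes, the share below over all 183 sites was 20.8% in sir2, 25.7% in orc1P179A, 33.3% in orc1bah and 29% in kos3. The kos3 counts rest on 1 list.

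The next sites inward differed from it. Site 3, left of ARN2, had relative folds of 1.21 and 0.906 for sir2, 0.689 and 0.705 for orc1P179A, 0.300 and 0.334 for orc1bah, 0.474 for kos3, and 0.566 and 0.541 for wild type. It lay above wild type in sir2 and orc1P179A and below it in kos3 and orc1bah, and its summit stayed within 65 bp of the nearer wild-type one in every mutant list. The weakest sites stayed near their wild-type level where they were found, except site 19 in sir2, which had relative folds of 0.600 and 0.587, against 0.376 and 0.276 in wild type. Site 14 had 0.383 and 0.330 for sir2, 0.307 and 0.307 for orc1P179A and 0.256 for kos3, against 0.329 and 0.259 for wild type. Site 2, the weakest, had 0.272 in the second sir2 list and 0.302 and 0.253 in orc1P179A, against 0.276 and 0.290 in wild type.

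**Figure D4:**
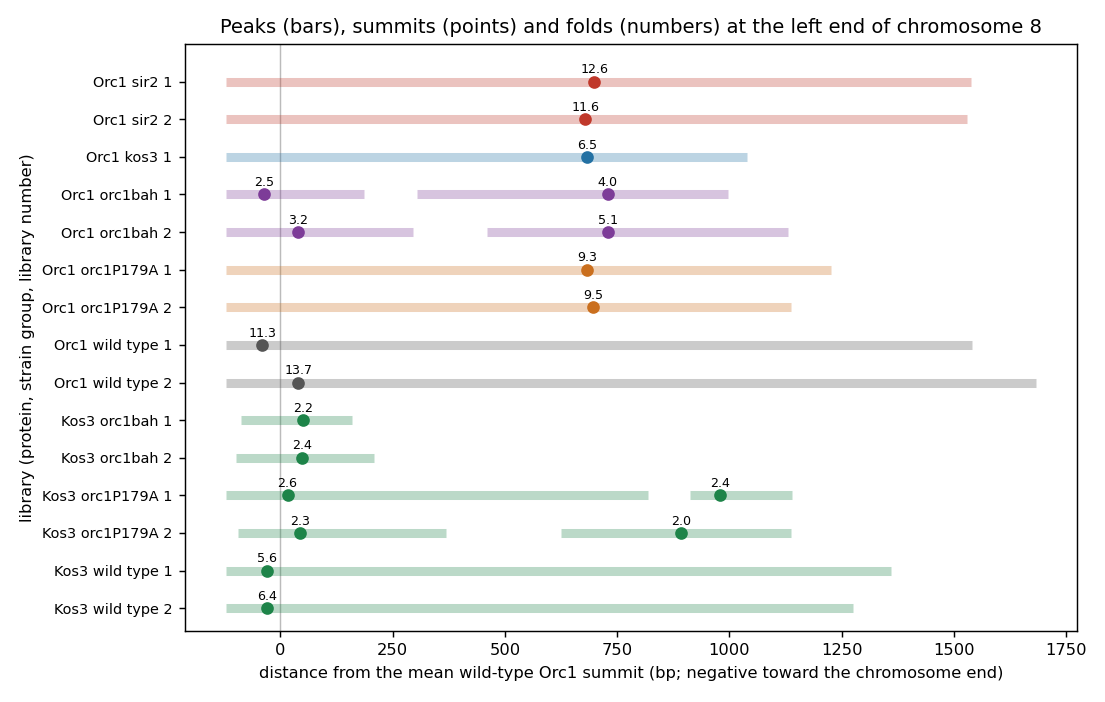
Peaks at the left end of chromosome 8 in 15 libraries, as distance in bp from the mean wild-type Orc1 summit, with the chromosome end to the left. Bars are peaks, points their summits and the numbers the fold of each peak in its own list. The strongest Orc1 summit lies from 639 to 689 bp inward of the nearer wild-type one in all 7 mutant Orc1 lists, while the strongest Kos3 summit lies within 24 bp of a wild-type Orc1 summit in all 6 Kos3 lists.

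Kos3 was found at few of the sites in wild type. Its lists held a peak at 1 and 1 of the 21 sites in orc1bah, at 15 and 19 in orc1P179A, and at 2 and 4 in wild type. Over wild-type Orc1 sites of all chromosomes, 6.38% were found in every orc1bah list, 12.8% in every orc1P179A list and 11.9% in every wild-type list. The counts found in every list on chromosome 8 were 1, 14 and 2. The 1 site in orc1bah was site 1. The 2 in wild type were sites 1 and 2, and the second wild-type list added sites 14 and 19, with folds of 2.22 and 2.01.

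At site 1 the strongest Kos3 peak had folds of 2.22 and 2.44 in orc1bah, 2.58 and 2.27 in orc1P179A, and 5.65 and 6.42 in wild type. Its summit lay at 173 and 172 in orc1bah, at 139 and 167 in orc1P179A and at 93 in both wild-type lists. These positions of the strongest peak are near the wild-type Orc1 summits and not near the inner summit that the mutant Orc1 lists had. Both orc1P179A lists also had a second, lower Kos3 peak farther inward at site 1. Its summits lay at 1103 and 1016, with folds of 2.37 and 1.97. The other chromosome 8 peaks had a median fold of 2.22 in each of these lists. Kos3 peaks covered 247 and 310 bp of site 1 in orc1bah, 1169 and 977 bp in orc1P179A, and 1482 and 1398 bp in wild type. At site 2, Kos3 folds were 2.81 and 2.68 in orc1P179A and 2.19 and 2.38 in wild type, and both orc1bah lists had no peak. The summits there lay 377 and 101 bp from the nearer wild-type Orc1 summit in orc1P179A, and 20 and 123 bp in wild type. Kos3 folds of different lists are not on one scale, and no relative fold was formed for Kos3, so these values do not rank the strains.

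In the orc1P179A Kos3 lists, peaks outside the sites covered 39.9% and 40.8% of the bases of this stretch. Of the site bases, 33.9% and 46.9% were covered. The median fold of the peaks at the sites was 2.18 and 2.30, and that of the other chromosome 8 peaks was 2.22 in each list. In the first list the sites thus had the lower fold and the smaller share covered, and in the second the higher of each. Their strongest summits lay at a median of 377 and 319 bp from the nearer wild-type Orc1 summit, with 3 of 15 and 4 of 19 within 100 bp. In the mutant Orc1 lists that median lay from 8 to 26 bp. There 19 of 20 and 18 of 21 summits were within 100 bp for sir2, 19 of 20 and 20 of 21 for orc1P179A, 16 of 17 and 17 of 18 for orc1bah, and 18 of 20 for kos3. At the 15 sites used for the fold ratio, each of the 15 summits lay within 100 bp in all 7 mutant Orc1 lists. With a summit within 200 bp of a wild-type Orc1 summit asked for, the count found in both orc1P179A Kos3 lists was 3 in place of 14.

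**Figure D5:**
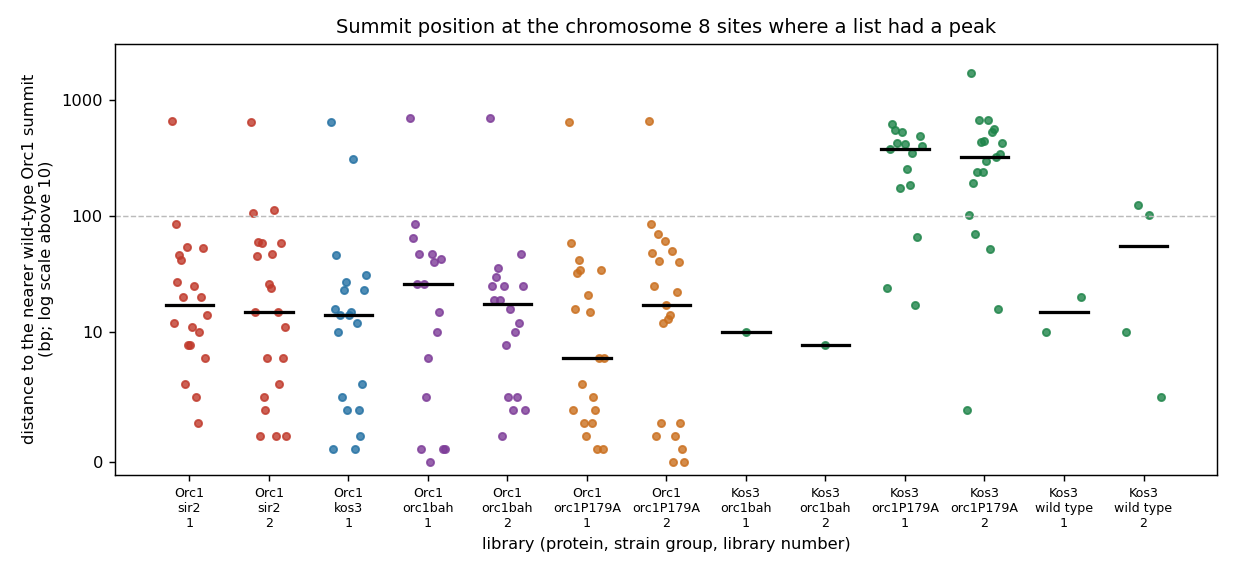
Distance in bp from the strongest summit of a library at a site to the nearer wild-type Orc1 summit (log scale above 10), 1 point for each site where the library had a peak, with the median as a bar and 100 bp as a dashed line. The medians of the 7 mutant Orc1 libraries lie from 8 to 26 bp, and those of the 2 orc1P179A Kos3 libraries at 377 and 319 bp.

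Peaks outside the sites differed from the sites in their place relative to genes. Of their summits, 13.9% and 13.1% lay outside genes in the sir2 Orc1 lists. For orc1P179A these shares were 18.75% and 17.4% with Orc1 and 9.71% and 10.8% with Kos3. All 6 were below the 20.2% of bases that lie outside genes. In the same lists the median fold of the 15 sites was 7.95 and 7.91 times that of the peaks outside the sites in sir2, and 6.44 and 6.21 times in orc1P179A.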

How the data were processed

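Each of the 15 immunoprecipitation libraries had 1 deposited peak list. Bowtie2 2.3.4.1 and MACS2 2.2.7.1 are named in the submitters' processing notes, and the genome build is not given in the sources used here. The deposited lists have the narrowPeak layout, with a summit, a fold (a linear ratio over background by the authors), −log10 of the p-value and of the q-value, and a whole-number score, not used here. Peak names hold the word subsample, and in 3 lists another replicate number than the labels, which were followed. Depth is unknown, so no interval from counts is given. The lowest −log10 q was 1.31. Per the file names, 1 input served the first wild-type Orc1 library, sir2 and kos3, and the other the rest. Gene names and neighbours came from RefSeq assembly ASM24337v1 (5174 genes). With its chromosome 8 genes, 16 of 21 site summits lay outside genes, against 3 to 9 with genes of another chromosome.

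Groups came from the labels. Where several peaks overlapped a site, the one with the highest fold stood for it. Groups were compared by the exact two-sided permutation test over lists (Python 3.11.15, pandas 2.3.3, numpy 2.4.6), after the code was tested on simulated data. The p-values measure only the spread between these libraries. The members, sites and tests were chosen with earlier results of these data known. Named sites were the 5 strongest in wild type, those missing from a mutant Orc1 list, those in both wild-type Kos3 lists, the largest and smallest change per mutant, and those at the edges of the rule; the remaining sites and the summit shift were added after their values were seen. Alternatives were a −log10 q cutoff of 5 or 10, other overlap rules, other site sets, distances to the ends and summaries, and each library left out.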

Additional observations from a re-analysis of the deposited data

Results flagged for a closer look

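Several results were higher than every wild-type list in one mutant and lower than every wild-type list in another; whether the mutants differ was not tested, and they share the wild-type lists. The length covered at the sites averaged 19639 bp in sir2 and 19544.5 bp in orc1P179A, above wild type at 18778.5 bp, and 13901 bp in orc1bah, below it, so that the first mutants stood 1.41 and 1.41 times above orc1bah. With 1 wild-type list as both site source and reference, the covered length could not exceed wild type, so that setting does not test the direction. With summits within 200 bp the sir2 and orc1P179A ratios to wild type were 0.958 and 0.971. That setting leaves out the peaks of these mutants at site 1. Kos3 peaks were found at a mean of 17 sites in orc1P179A and 1 in orc1bah, 17 times as many, against 3 in wild type. Peaks outside the sites covered 39.9% and 40.8% of the stretch in the orc1P179A Kos3 lists. The count in both of these lists, 14, was 3 with summits within 200 bp and 0 with a −log10 q of at least 10.

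The relative fold stood higher in sir2 and lower in orc1bah than in wild type at site 3, by 3.33 times between these mutants, site 5 (2.00 times), site 12 (2.98 times), site 17 (5.35 times) and site 21 (2.14 times). At site 21 the first orc1bah list lay under the lower wild-type list by less than the third digit, at 1.15 in both. At site 12 the mean relative fold was 1.25 in sir2, 1.12 in orc1P179A, 0.420 in orc1bah and 0.682 in wild type. Between orc1P179A and orc1bah it did so at site 3 (2.20 times), site 5 (2.28 times), site 12 (2.68 times) and site 21 (1.96 times).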

How the results depend on the processing

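The fold ratio on chromosome 8 kept its direction in sir2 and orc1P179A under all 16 alternatives, with log2 differences from 1.02 to 1.36 and from 0.65 to 0.97, and the length ratio did so under all 15, from 0.93 to 1.22 and from 0.95 to 1.06. Sites above both wild-type lists numbered 15 to 16 and 14 to 15 there. With every site found in the list they were 16 of 18 in sir2 and 14 of 18 in orc1P179A. With no minimum distance to an end they were 16 of 17 and 15 of 17. In kos3 that count was 9 and ran from 6 to 13, the fold ratio ran from 0.14 to 0.46 and the length ratio turned to −0.034 with every site found in the list. In orc1bah the fold ratio turned to −0.026 with no minimum distance to the end; with each library left out it ran from −0.11 to 0.21. Its count of sites above wild type was 2; it ran from 2 to 9 with a library left out (9 without the first wild-type library, 4 without either orc1bah library) and was 9 against the wild-type list of the same input. The covered length in sir2 and orc1P179A turned to 0.958 and 0.971 with summits within 200 bp. That setting left out the sir2 and orc1P179A peaks at site 1, whose summits lay from 639 to 659 bp from the nearer wild-type summit. These peaks covered 1660 and 1652 bp of the site in sir2 and 1350 and 1260 bp in orc1P179A. With a mutant library left out the covered ratio was 1.06 and 1.03 in sir2 and 1.04 each time in orc1P179A. With a wild-type library left out, the other one both set the sites and was the reference, so the ratio could not exceed 1. It was then 0.912 and 0.972 in sir2 and 0.930 and 0.951 in orc1P179A. Site counts in the Orc1 mutants stayed within 1.5 times of their values in all alternatives. For Kos3 a −log10 q cutoff of 10 gave counts of 0 in orc1P179A, 0 in orc1bah and 1 in wild type, and a cutoff of 5 gave 8 in orc1P179A. Summits within 200 bp gave 3 in orc1P179A, and 50% overlap gave 1 in wild type. With a library left out the count ran from 13 to 19 in orc1P179A and from 2 to 4 in wild type, with 4 when the first Kos3 library was left out.

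Same-numbered libraries correlated in their deviations from the group means by −0.29 to 0.11 over 183 sites. The lowest value was between orc1bah and orc1P179A. Whether the numbers pair the samples cannot be told from these values. With the replicate number as a block the fold differences were 1.20, 0.14, 0.05 and 0.81 and the length differences 1.14, 0.13, 0.11 and 1.01 in sir2, kos3, orc1bah and orc1P179A, and the covered ratios 1.05, 0.853, 0.740 and 1.04. Libraries of unknown depth limit what a missing weak peak can show.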
